A study of Mus musculus with 19 samples.

Results

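The transcripts described here are those of 6 genes that encode activators and repressors in the transcription loop of the circadian clock. They are Arntl, which encodes BMAL1, Clock, Npas2, Rora, and the REV-ERB genes Nr1d1 and Nr1d2. The 6 were taken by gene symbol from a cornea table and a conjunctiva table of RNA sequencing values, each of which lists 24557 features. All 6 were found in both tables, and all 6 had at least a mean of 10 normalized counts in each tissue and were therefore tested there.

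In the clock, BMAL1 pairs with CLOCK, or with its close relative NPAS2, and the pair binds E-box elements in DNA. Through E-boxes it turns on the Per and Cry repressors, the output factors Dbp and Tef, and Nr1d1 and Nr1d2. The REV-ERB proteins then bind ROR elements and repress Arntl, Clock and Npas2, while RORA binds the same elements as an activator, so that Arntl and Nr1d1 transcripts peak at opposite times of day. Feeding time is a known timing signal for the clocks of peripheral tissues, and corneal renewal and conjunctival physiology are known to follow a daily rhythm.

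The mice were C57BL/6 by the labels and C57BL/6J by the study's methods, with no engineered allele given, and female by those methods. They were fed ad libitum (AL), that is with free access to food, or kept on calorie restriction (CR), in which the daily ration is cut. The titles of all 4 groups carry the marks 6M and 50W. The study writes M for months of age. By its methods CR began at about that age and went on for several months, so the mice were older when tissue was taken. What 50W stands for is not given in the sources used here. Each diet is represented by 5 cornea libraries, and the conjunctiva by 4 libraries of AL mice and 5 of CR mice. By the study's methods the cornea samples were scraped epithelium, the conjunctiva was cut out as whole tissue, and CR mice received their food in a single daily meal shortly before dark. Less food and a set mealtime therefore cannot be told apart in these groups, and the time of day at which tissue was taken is not given in the sources used here. The methods describe 2 feeding cohorts that differ in site and chow, and which of them gave these libraries is not stated. In the cohort described last, CR mice had a chow with more vitamins and micronutrients than that of AL mice. There the make-up of the chow cannot be told apart from less food either. The mealtime follows the account of that cohort in the methods, so it may not hold for both.

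Cornea libraries held 10354125 to 14681223 counted reads and conjunctiva libraries 10726717 to 14433441. Values are normalized counts, that is reads divided by the size factor that the authors gave the library, and each tissue was scaled in its own table. The share of genes with 0 reads was 38.7% to 45.2% in AL and 39.9% to 47.6% in CR cornea libraries, and in the conjunctiva 33.6% to 37.9% and 33.9% to 40.1%. Cornea AL 4 (45.15%) lay among the CR libraries in this respect and cornea CR 1 (39.92%) among the AL libraries, so cornea results are also given without that pair. Corneal epithelium markers (Krt12, Krt5, Krt14, Pax6, Aldh3a1, Clu and Gja1) summed to between 466000 and 671000 normalized counts in cornea libraries, and to between 90800 and 143000 in conjunctiva libraries. Goblet cell markers summed to between 3720 and 10100 in conjunctiva libraries, where no goblet marker was at 0 throughout, and to between 19.6 and 123 in cornea libraries. The conjunctiva epithelium list (Krt4, Krt13, Krt19, Aqp5 and Sprr1a) did not set the tissues apart. It summed to between 58100 and 87000 in cornea and between 25900 and 75400 in conjunctiva libraries. Of the 5 lacrimal gland markers, the summed level in the cornea was 22.1 to 29100 in AL and 0 to 7.67 in CR libraries, and in the conjunctiva 51.6 to 114 in AL and 3.07 to 21.2 in CR libraries. The 6 macrophage markers summed to 298 to 386 in AL and 139 to 297 in CR cornea libraries. In the conjunctiva they summed to 2560 to 3230 and 1780 to 2390. These sums did not overlap between diets, though barely so in the cornea. Of all tested single genes, 1.89% in the cornea and 1.95% in the conjunctiva lay apart with CR below AL. All tested genes of the list had lower values under CR (4 and 6 genes). By the rule given below C1qa fell in the cornea (log2 change -1.58), where 0.472% of all tested genes did. In the conjunctiva 0 of the list fell, where 0.136% of all tested genes did. The fibroblast list summed to 39300 to 59000 in AL and 25900 to 51300 in CR conjunctiva libraries. Although these sums overlapped, all 7 genes of the list had lower values under CR there. By the rule given below 2 of them fell, Col1a1 (log2 change -1.37) and Col3a1 (-1.57), where 0.136% of all tested genes did. In the cornea 3 tested genes of the list were higher and 3 lower. The 4 skeletal muscle markers summed to 8120 to 37700 in AL and 8780 to 69000 in CR conjunctiva libraries, and to at most 9.2 in cornea libraries. The part of these other cell types in the results below was not tested. In bulk samples such as these, fewer cells of a type and less RNA per cell cannot be told apart. The labels do not say that each library is a separate mouse, while the study's figure legends count the sequenced groups in mice. The p-values measure the spread between libraries, which may in part be technical.

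Short stretches of DNA around the start sites of the genes that moved are shown because they hold letters that match, or nearly match, ROR or E-box elements. Whether the loop acts through these stretches was not tested. They come from RefSeq windows of build GRCm38.p6 that run from 250 bases before to 50 bases after a start site, and windows were found for 6 of 6 genes. Arntl carries a pair of ROR-type elements, and the capitals mark the core of each:
Arntl site 1, chr7:113207492-113207521, + strand: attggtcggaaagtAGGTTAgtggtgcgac
Arntl site 2, chr7:113207526-113207555, + strand: agggaaggcagaaagtAGGTCAgggacgga
Both Arntl stretches lie in the 5′ untranslated part of exon 1 of a transcript that starts farther upstream in the GENCODE annotation. The cores start 36 bases apart and differ by C5T, counted from 1 at the 5′ end of the core, with the base of site 2 given before that of site 1. Both cores start inside a shared run, GAAAGTAGGT, whose last 4 bases are their first 4. It was picked as the longest run that these 2 stretches share, and 21 of 32851 windows hold it (0.064%). Any run of 10 bases is rare by its length, so this share says nothing of the pair. The core of site 1, AGGTTA, was not among the letters searched for below. The Nr1d1 stretch below lies upstream of its start, outside any annotated exon, and its capitals mark AACGTG, which is the E′-box CACGTT read on the other strand. Its first base is 28 bases before the RefSeq start site, which lies farther upstream than the GENCODE start of the location given further on.
Nr1d1, chr11:98775385-98775465, - strand: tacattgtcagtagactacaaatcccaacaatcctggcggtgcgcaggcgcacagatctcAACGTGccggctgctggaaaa
For Nr1d2 the RefSeq start site also differs from the GENCODE start. Nr1d2 holds the ROR core AGGTCA upstream of both, with its first base 77 bases before the RefSeq start site, marked in capitals here:
Nr1d2, chr14:18239154-18239223, - strand: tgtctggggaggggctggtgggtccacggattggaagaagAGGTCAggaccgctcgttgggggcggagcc

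All windows were searched on both strands for the E-box CACGTG, the E′-box CACGTT, the ROR core AGGTCA, the same core with a T before it (TAGGTCA, which overlaps the former) and the D-box TTATGTAA. The E-box was in 7.15% of windows, the E′-box in 4.68%, AGGTCA in 16.3%, TAGGTCA in 2.61% and the D-box in 0.94%. Among the 6 genes, the E′-box was found at Nr1d1, AGGTCA at Arntl, Clock and Nr1d2, and TAGGTCA at Arntl. The Clock match lay 119 bases before the RefSeq start site in the last of its 3 windows, on the opposite strand. No window of Npas2 or Rora held any of these letters, which says nothing of elements outside the windows. Of the other E-box targets listed further on, 9 had a window, and those of Per1, Cry1, Ciart, Bhlhe41 and Tef (5 genes) held CACGTG. A match is a description of the letters and does not show binding.

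In the cornea, Arntl fell and both REV-ERB genes rose under CR. Arntl was at 0.378 times its AL mean, Nr1d1 at 2.20 times and Nr1d2 at 1.70 times. The call required both a fold over 1.5 and, in limma's test, a p under 0.05 after Benjamini-Hochberg adjustment over all genes. By that rule 2 of the 6 genes rose, where 0.749% of the 12278 tested genes did, and 1 fell, where 0.472% did. The ranges of both diets were separate for the same 2 that rose and 1 that fell, against 2.08% of all genes with CR above AL and 1.89% with CR below. At an unadjusted p under 0.05 stood 5 of the 6, against 18.1% of all genes, and Rora was the exception. The median log2 change of the 6 was -0.12, with 3 higher and 3 lower, beside -0.03 over all genes tested. Without AL 4 and CR 1 together, an alternative chosen after the data were seen, the same 3 genes were called, with Arntl at -1.48 (adjusted p = 0.00648), Nr1d2 at 0.63 (0.00944) and Nr1d1 at 1.51 (0.000235).

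In the conjunctiva both REV-ERB genes rose, and Arntl, Npas2 and Clock had lower values that did not pass the adjusted test. Arntl was at 0.0902 times its AL mean, Npas2 at 0.443 times, Nr1d1 at 2.30 times and Nr1d2 at 2.22 times. Here 2 of the 6 genes rose by the same rule, against 0.223% of 13929 tested genes, and 0 fell, against 0.136%. That 0 rests on limma at the settings described, and the 3 genes with lower values each reached p under 0.05 before adjustment. Every CR library lay above every AL library for 3 genes (Rora, Nr1d1 and Nr1d2), against 1.92% of all genes, and below for 2 (Arntl and Npas2), against 1.95%. All 6 had an unadjusted p under 0.05, against 9.4% of all genes, and their median log2 change was -0.06 beside -0.02 over all genes.

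**Figure D1:**
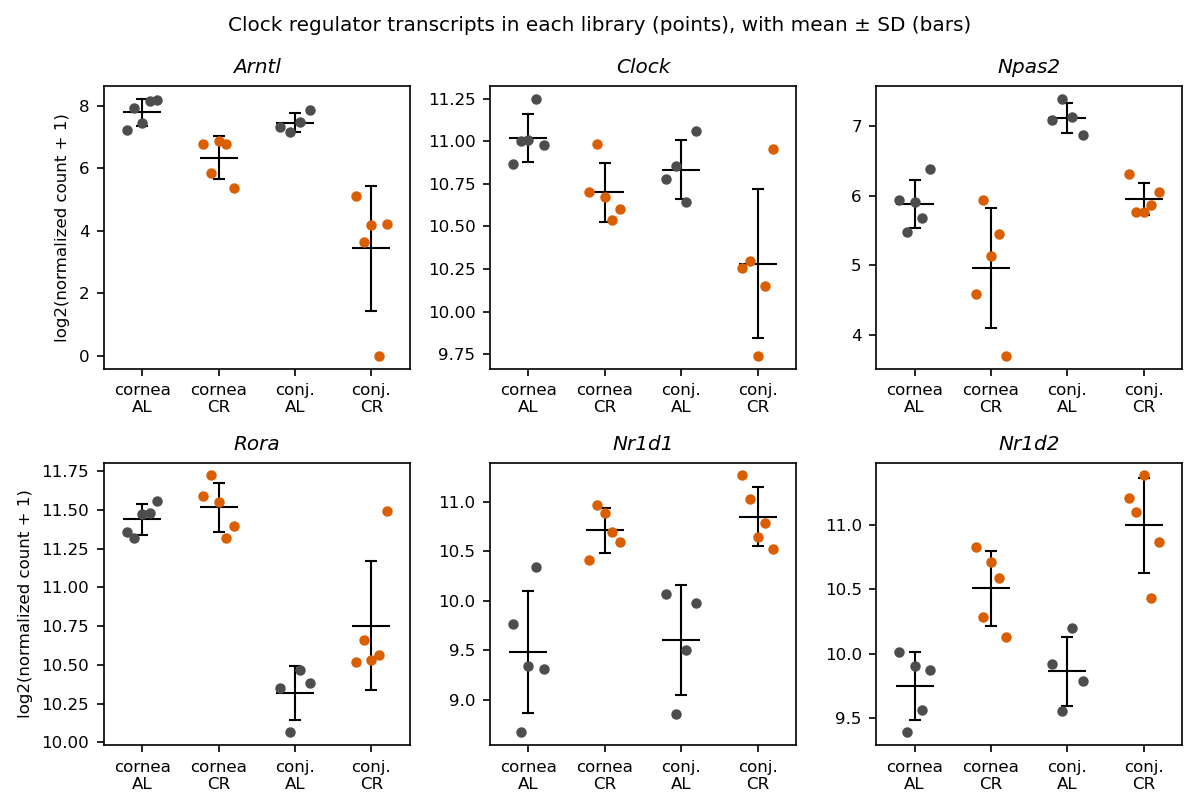
Log2(normalized count + 1) of the 6 genes (vertical axis) in each library, grouped by tissue and diet on the horizontal axis, with AL in grey and CR in orange. Points are libraries and bars are the mean ± SD of 4 or 5 libraries. Every CR library is below every AL library for Arntl in both tissues and above for Nr1d1 and Nr1d2, and the lowest Arntl point, at 0, is conjunctiva CR 4.

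**Figure D2:**
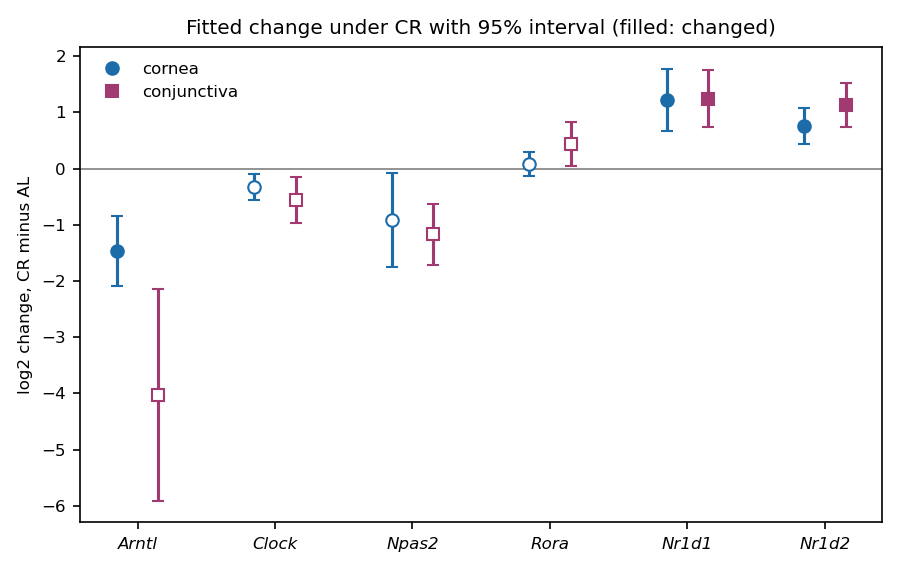
Fitted log2 change under CR (CR minus AL, vertical axis) for each gene in the cornea (circles) and the conjunctiva (squares), with 95% confidence intervals. Filled symbols passed the adjusted test and the fold threshold: Arntl, Nr1d1 and Nr1d2 in the cornea and Nr1d1 and Nr1d2 in the conjunctiva.

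Arntl (gene ID 11865, chr7:113207465-113314126, + strand) encodes BMAL1, the partner of CLOCK and NPAS2 in the activating dimers. In the cornea its normalized counts were 151, 244, 177, 288 and 292.5 in AL libraries 1 to 5. They were 109.5, 56.5, 118, 110.4 and 40.9 in CR libraries 1, 2, 3, 4 and 7. The highest CR value lay under the lowest AL value, and the CR libraries divided into a higher set (1, 3 and 4) and a lower pair (2 and 7). The means were 230.4 ± 64.4 (SD, n = 5) in AL and 87.1 ± 35.6 (n = 5) in CR. On the log2 scale this was -1.46 ± 0.30 (± SE), with a limma adjusted p of 0.0195. Its 95% interval ran from -2.09 to -0.84. Leaving out AL 2, AL 5 or CR 2 brought the adjusted p to 0.0684, 0.0709 and 0.0732, with the change at -1.43, -1.36 and -1.34.

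In the conjunctiva the counts of Arntl were 158, 144, 179.7 and 233.5 in AL libraries 1, 3, 4 and 5. The CR libraries 1 to 5 held 34.1, 11.4, 17.4, 0 and 17.7. These are 35, 12, 18, 0 and 16 reads, beside 128 to 257 reads in AL libraries. The count of 0 in CR 4 allows up to 3 reads, or 3.07 normalized counts in that library. The groups lay far apart, with means of 179 ± 39.4 (n = 4) and 16.1 ± 12.3 (n = 5), a change of -91.0%. The fitted change was -4.03 ± 0.86 on the log2(normalized count + 1) scale, and it did not pass the adjusted test (limma adjusted p = 0.0937, unadjusted p = 0.000638). That scale sets the library with 0 reads far below the others. With a pseudocount of 10 the change was -2.98 ± 0.37 and passed (limma adjusted p = 0.000963). Without CR 4 it was -3.17 ± 0.37 and also passed (adjusted p = 0.00159). Under limma voom on the reads it was -4.23 with an adjusted p of 0.0251, and under quantile normalization -3.80 with an adjusted p of 0.04. Over all alternatives other than leaving out 1 library, the adjusted p ranged from 0.000963 to 0.258.

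Clock (gene ID 12753, chr5:76209868-76304792, - strand) encodes the DNA-binding partner of BMAL1. Cornea AL libraries 1 to 5 held 1867, 2051, 2058, 2433 and 2014 normalized counts. The CR libraries 1, 2, 3, 4 and 7 held 1667, 2024, 1630, 1486 and 1551. CR 2 lay within the AL range and the other 4 CR libraries below it. The means were 2085 ± 209 and 1671 ± 209, and the log2 change of -0.32 ± 0.11 did not pass (limma adjusted p = 0.144, unadjusted p = 0.00911).

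Conjunctiva AL libraries 1, 3, 4 and 5 held 1759, 1847, 1598 and 2132 normalized counts of Clock. The CR libraries 1 to 5 held 1221, 1256, 854, 1136 and 1987. CR 5 stood among the AL libraries and the other 4 lay below all of them. Its log2 change was -0.55 ± 0.19 (limma adjusted p = 0.329). Without CR 5 it was -0.72 ± 0.15 and passed (adjusted p = 0.0385), and when the fit took the zero share of each library as a term it was -0.81 ± 0.15 (adjusted p = 0.0189).

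Npas2 (gene ID 18143, chr1:39193731-39363236, + strand) encodes a relative of CLOCK that can take its place beside BMAL1. It was a low transcript in the cornea, with 60.5, 43.7, 58.9, 50.4 and 82.4 normalized counts in AL libraries 1 to 5. CR libraries 1, 2, 3, 4 and 7 held 23, 60.3, 34.1, 42.9 and 12.1. CR 2 lay within the AL range, CR 4 just under it, and CR 7 rested on 13 reads. The log2 change of -0.91 ± 0.40 did not pass (limma adjusted p = 0.237, unadjusted p = 0.0338).

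In the conjunctiva Npas2 was at 134, 166, 139 and 115 normalized counts in AL libraries 1, 3, 4 and 5. It was at 77.9, 53.3, 53.1, 57.4 and 65.4 in CR libraries 1 to 5. No CR library reached the AL range, and the CR values were close together (a coefficient of variation of 17.1%). The means were 139 ± 20.9 and 61.4 ± 10.5, a change of -55.7%. The log2 change was -1.16 ± 0.26, with an unadjusted p of 0.000324 and a limma adjusted p of 0.0683, short of the threshold. It passed with array weights, which let less variable libraries count more (adjusted p = 0.0255), and its adjusted p was 0.0255 to 0.337 over the alternatives other than leaving out 1 library.

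Rora (gene ID 19883, chr9:68653786-69388246, + strand) encodes the activator that binds the same elements as the REV-ERB proteins. Cornea AL libraries 1 to 5 held 2624, 2557, 2848, 2860 and 3017 normalized counts. CR libraries 1, 2, 3, 4 and 7 held 3083, 3383, 3001, 2549 and 2699. The ranges overlapped, CR 4 being the lowest of all 10 libraries and CR 2 the highest. The log2 change was 0.08 ± 0.10 (limma adjusted p = 0.727). The 95% interval of -0.14 to 0.29 holds no fold as large as 1.5 in either direction.

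Conjunctiva AL libraries 1, 3, 4 and 5 held 1306, 1071, 1411 and 1334 normalized counts of Rora. The CR libraries 1 to 5 held 1469, 1618, 1476, 1515 and 2877. All CR libraries were above all AL libraries, 4 of them narrowly, and CR 5 stood far above the rest. In RPM, which scales each library by its counted reads alone and not by the authors' size factors, the ranges overlapped, with AL up to 120 and CR down to 113. The log2 change of 0.44 ± 0.19 did not pass (limma adjusted p = 0.470), and without CR 5 it was 0.25.

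Nr1d1 (gene ID 217166, chr11:98767932-98775333, - strand) encodes REV-ERB alpha, the heme-binding repressor of Arntl. In the cornea the AL libraries 1 to 5 held 871, 406, 648, 1292 and 633 normalized counts. The CR libraries 1, 2, 3, 4 and 7 held 1360, 1996, 1897, 1661 and 1540. The groups did not overlap, but AL 4 came close to CR 1. The means were 770.3 ± 335 in AL and 1691 ± 259 in CR. The log2 change was 1.23 ± 0.25 (limma adjusted p = 0.0406, 95% interval 0.67 to 1.78). This call was near the threshold: it was lost without any single one of AL 1, AL 3, AL 5, CR 2, CR 3, CR 4 or CR 7, with adjusted p up to 0.119 and changes of 1.16 to 1.30. Without AL 4 and CR 1 together the SE was smaller (1.51 ± 0.18).

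In the conjunctiva Nr1d1 was at 1073, 462, 722 and 1007 normalized counts in AL libraries 1, 3, 4 and 5. CR libraries 1 to 5 held 2464, 2086, 1600, 1758 and 1471. Every CR library lay above every AL library, and the spread was wide within AL (a coefficient of variation of 34.4%) and narrower within CR (21.4%), as in the cornea (43.5% and 15.3%). The means were 816 ± 281 and 1876 ± 402, with a log2 change of 1.25 ± 0.23 (limma adjusted p = 0.0396, 95% interval 0.74 to 1.76). Leaving out AL 4, CR 1, CR 2 or CR 4 brought the adjusted p to 0.170, 0.106, 0.143 and 0.0849. Quantile normalization also ended the call (1.18 ± 0.24, adjusted p = 0.0688).

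Nr1d1 shares 1075 bases of chromosome 11, of which 263 are exon bases of both genes, with Thra, the thyroid hormone receptor alpha gene on the opposite strand. Whether counting used strand is not settled, so reads from the shared stretch cannot be assigned with certainty. The stretch is the 3′ end of Nr1d1, and the study's methods describe libraries primed with oligo(dT). Its share of the Nr1d1 reads is not known and may exceed its share of the exon bases. Thra was at 1112 ± 162 normalized counts in AL and 1237 ± 153 in CR cornea, and at 1832 ± 415 and 1987 ± 167 in the conjunctiva. Its log2 changes were 0.16 ± 0.12 and 0.14 ± 0.16, and neither passed (limma adjusted p = 0.528 and 0.833). Arntl shares 33 exon bases with the antisense transcript Gm45355 and Rora 82 with the antisense transcript Gm15511. The pseudogenes and unclassified transcripts within Npas2 and Clock share 0 exon bases with them, and no annotated gene overlaps Nr1d2.

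Nr1d2 (gene ID 353187, chr14:18204054-18239127, - strand) encodes REV-ERB beta, which acts beside REV-ERB alpha. Cornea AL libraries 1 to 5 held 1031, 669.7, 959, 753 and 936 normalized counts. CR libraries 1, 2, 3, 4 and 7 held 1813, 1243, 1679, 1534 and 1120. The groups did not overlap, although CR 7 was near AL 1. The means were 869.9 ± 152 and 1478 ± 291, with a log2 change of 0.76 ± 0.15 (limma adjusted p = 0.0142, 95% interval 0.45 to 1.07). Leaving out AL 2 (adjusted p = 0.0578) or CR 3 (0.0649) lost the call.

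Conjunctiva AL libraries 1, 3, 4 and 5 held 969, 751, 1173 and 880.3 normalized counts of Nr1d2. CR libraries 1 to 5 held 2371, 2195, 2674, 1380 and 1865. All CR libraries were above all AL libraries, CR 4 being the nearest to them. The means were 943 ± 177 and 2097 ± 496. The log2 change was 1.14 ± 0.19 (limma adjusted p = 0.00949, 95% interval 0.74 to 1.53), the smallest adjusted p among the 6 genes in either tissue, and it passed without each library in turn.

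Whether the diet acted alike on the 6 genes in both tissues was tested as the difference of their log2 changes, conjunctiva minus cornea. The test takes the tissues as independent, but by the study's methods several tissues were collected from each mouse. Cornea and conjunctiva share 8 titles, and whether these are the same mice is not stated. Deviations from the group means had r of -0.42 to 0.144 between libraries of the same title. Of the 6, 0 passed at an adjusted p under 0.05, where 0.0168% of 11929 genes did (2 genes). At an unadjusted p under 0.05 stood 1 of the 6, Arntl, against 7.48% of all genes. For Arntl the difference was -2.56 ± 0.91 (adjusted p = 0.515, 95% interval -4.51 to -0.62), which rests in part on the conjunctiva library with 0 reads. With a pseudocount of 10, the setting at which that library weighs less, it was -1.63 ± 0.46. In the same test its unadjusted p was then 0.00127, beside 0.0136 as reported, and its adjusted p 0.304, which did not pass. Nr1d1 had a difference of 0.02 ± 0.35 (95% interval -0.69 to 0.74), Nr1d2 of 0.38 ± 0.24 (-0.11 to 0.86) and Rora of 0.36 ± 0.21 (-0.08 to 0.80). Clock was at -0.23 ± 0.22 (-0.69 to 0.23) and Npas2 at -0.25 ± 0.47 (-1.22 to 0.72). All 6 intervals hold differences of more than 1.5-fold.

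RPM values allow the 4 groups to be put in order for each gene, as a description without a test. Arntl was highest in AL cornea (19.9 ± 5.53) and AL conjunctiva (15.1 ± 3.28), which overlapped, then came CR cornea (7.63 ± 3.24) and CR conjunctiva (1.31 ± 1.03), each apart from the group before it. Clock ran in the same order, from 180 ± 18.7 to 102 ± 27.7, but every neighbour overlapped the next. Npas2 led in AL conjunctiva (11.7 ± 1.69), apart from AL cornea (5.11 ± 1.27), which overlapped CR conjunctiva (4.89 ± 0.908), as that did CR cornea (3.01 ± 1.61).

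For the REV-ERB genes and Rora the order was different. Nr1d1 was highest in CR conjunctiva (150 ± 36.9) and CR cornea (147 ± 24.1), which overlapped, with AL conjunctiva (69.2 ± 24.4) and AL cornea (66.4 ± 28.7) below. CR cornea did not overlap either AL group, while the lowest CR conjunctiva library (CR 5, 108) was just under the highest AL cornea library (AL 4, 111). Nr1d2 ran from CR conjunctiva (169 ± 50.1) through CR cornea (129 ± 27.9) and AL conjunctiva (79.9 ± 16) to AL cornea (75.1 ± 13.3), each overlapping the next. Rora was ordered by tissue before diet, with CR cornea (256 ± 31) and AL cornea (240 ± 18.4) above CR conjunctiva (141 ± 40.3) and AL conjunctiva (108 ± 13.6).

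**Figure D3:**
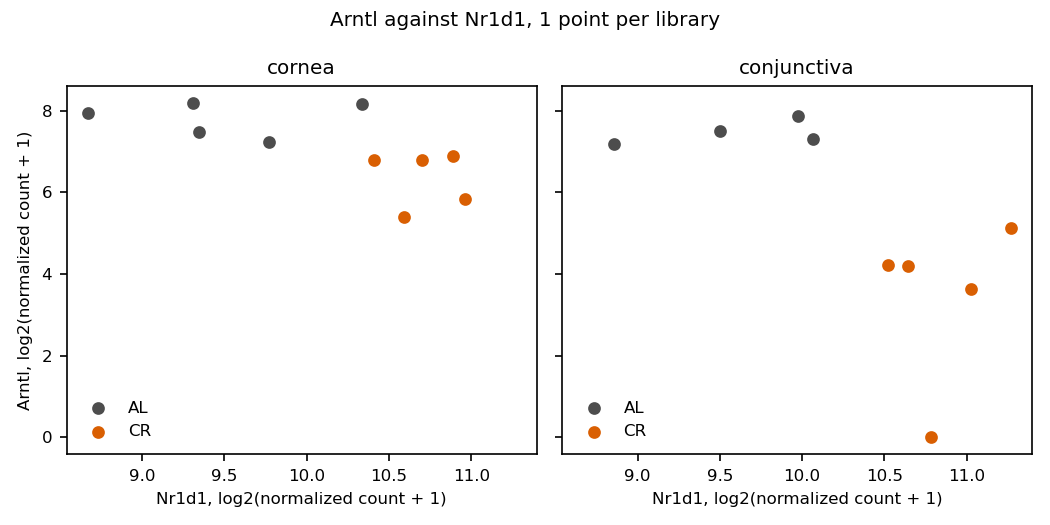
Arntl (vertical axis) against Nr1d1 (horizontal axis), both as log2(normalized count + 1), with 1 point per library and AL in grey and CR in orange, in the cornea (left) and the conjunctiva (right). CR libraries sit to the lower right of AL libraries in both tissues, and conjunctiva CR 4 lies at 0 for Arntl.

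Set against each other within a library, the level of Arntl minus that of Nr1d1 on the log2 scale was -2.52 to -0.74 in AL and -5.20 to -3.62 in CR cornea libraries. In the conjunctiva it was -2.75 to -1.68 in AL and -10.78 to -6.14 in CR libraries. The plot of Arntl against Nr1d1 shows this separation by diet. Cornea AL 4 had the most Nr1d1 of its group and, at 288 normalized counts, the next to highest Arntl.

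Across all 10 cornea libraries Pearson's r was 0.63 for Arntl with Clock, 0.642 for Arntl with Npas2, -0.682 for Arntl with Nr1d1 and 0.720 for Nr1d1 with Nr1d2. Across the 9 conjunctiva libraries the same pairs had r of 0.621, 0.832, -0.655 and 0.832. Rora had r between -0.569 and 0.521 with the other 5 genes over both tissues. These values describe libraries that share the diet contrast and the scaling, and they carry no test.

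The within-group SD of log2 values over all tested genes had a median of 0.276 in AL and 0.340 in CR cornea libraries, and of 0.293 and 0.355 in conjunctiva libraries. Rora was steadier than that in the cornea (0.0977 in AL and 0.161 in CR), as was Clock (0.140 and 0.172). Nr1d1 was more variable than the median gene in AL (0.617 in cornea and 0.556 in conjunctiva libraries) and less so in CR (0.224 and 0.30). Arntl was the most variable of the 6 in CR conjunctiva (1.996), where CR 4 was at 0, and Npas2 in CR cornea (0.857).

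The genes whose values followed each of the 6 most closely were ranked by the mean of Pearson's r over the 10 cornea and the 9 conjunctiva libraries, among 11929 genes tested in both. For Nr1d1 these were Dbp (0.921), Per1 (0.919) and Per2 (0.909), all clock genes driven through E-boxes, and for Nr1d2 they were Dbp (0.923), Tef (0.908) and Cyp2a5 (0.904). The lowest values for Nr1d1 were those of Cmas (-0.902), Prr13 (-0.894) and Mien1 (-0.893), and for Nr1d2 those of Polb (-0.891), Prr13 (-0.880) and Hnrnpc (-0.873). Both REV-ERB genes thus had Dbp first and Prr13 among the lowest.

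Arntl was followed most closely by Dtx4 (0.888), Mageh1 (0.853) and Vav2 (0.839), with Tmem205 (-0.863), Ccnd1 (-0.849) and Ccnd2 (-0.845) lowest. Ccnd1 and Ccnd2 encode D-type cyclins, which drive entry into the cell cycle. Npas2 was followed by Bad (0.873), 2410002F23Rik (0.872) and Jpt1 (0.826), and its lowest values were those of Alas1 (-0.851), Creb5 (-0.831) and Atp1b1 (-0.830). Alas1 encodes the enzyme that starts heme synthesis.

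For Clock the closest genes were Prag1 (0.839), Megf9 (0.821) and Sesn3 (0.811), and the lowest Ctgf (-0.827), Ablim3 (-0.792) and Prom2 (-0.772). Rora was followed by Zfp644 (0.895), Rock2 (0.889) and Dicer1 (0.871), with Ostf1 (-0.826), Uggt2 (-0.815) and Nudc (-0.802) lowest. The likeness lists of Clock and Rora hold no other gene of the clock lists described next. All of these ranks include the difference between diets and carry no test.

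The genes that work around the 6 were read by list, without a test of the list. By the same rule 0.749% of all tested genes rose and 0.472% fell in the cornea. In the conjunctiva 0.223% rose and 0.136% fell. At such shares a count of 0 is usual in short lists, so the counts of 0 below are no result about their genes. Targets that the BMAL1 dimers switch on through E-boxes moved most: in the cornea 9 of 11 rose and 0 fell, and in the conjunctiva 8 of 11 rose and 0 fell, with median log2 changes of 1.72 and 1.55. Per2, a repressor of the dimers, went from 154 ± 46.3 to 1208 ± 207 normalized counts in the cornea (2.998 ± 0.19 on the log2 scale, limma adjusted p = 6.42e-08) and changed by 1.84 ± 0.19 in the conjunctiva (adjusted p = 0.000332). Bhlhe41, which encodes the repressor DEC2, changed by 4.21 ± 0.45 in the cornea and 2.55 ± 0.23 in the conjunctiva (adjusted p = 0.000325 and 6.58e-05). Dbp and Tef, which bind D-boxes, changed by 2.82 ± 0.24 and 1.72 ± 0.16 in the cornea and by 2.80 ± 0.25 and 1.80 ± 0.22 in the conjunctiva. Ciart, another repressor of the dimers, changed by 3.78 ± 0.38 in the cornea and 2.72 ± 0.53 in the conjunctiva (adjusted p = 2.22e-05 and 0.0335). Per3, a relative of Per2, changed by 0.90 ± 0.17 in the cornea and 1.44 ± 0.19 in the conjunctiva (adjusted p = 0.00969 and 0.00204). Cry1 passed in neither tissue (0.15 ± 0.23 and 0.16 ± 0.30). Hlf did not pass in the cornea (0.26 ± 0.10, limma adjusted p = 0.207), nor did Bhlhe40 in the conjunctiva (0.34 ± 0.14, adjusted p = 0.46). Per1 had higher values in CR conjunctiva, by 1.55 ± 0.35, without passing (limma unadjusted p = 0.000984, adjusted p = 0.117). The study reports Per1 as upregulated there.

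Nfil3 and Cry1 are other genes known to carry ROR elements, and neither passed in either tissue. Nfil3, whose product opposes DBP at D-boxes, fell in value like Arntl without passing: 21.8 ± 9.83 to 7.83 ± 11 normalized counts in the cornea (limma adjusted p = 0.219), and 103 ± 33.4 to 28.8 ± 20.2 in the conjunctiva, where its groups did not overlap (-2.10 ± 0.53, unadjusted p = 0.00115, adjusted p = 0.128). The relatives Rorb and Arntl2 also passed in neither tissue. Arntl2, which encodes the second BMAL protein, was at 101.9 ± 17.9 and 94.7 ± 30.5 normalized counts in AL and CR cornea, and at 61.5 ± 16.3 and 67.9 ± 22.7 in the conjunctiva. Its log2 changes were -0.14 ± 0.25 and 0.13 ± 0.33.

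Of 8 genes for the REV-ERB corepressor complex and for heme, 0 passed in the cornea and 1 in the conjunctiva. That gene was Alas1, which makes the heme that REV-ERB proteins bind. It went from 1782 ± 465 to 3730 ± 326 normalized counts in the conjunctiva (1.10 ± 0.17, limma adjusted p = 0.00639) and from 269 ± 29.9 to 423 ± 98.5 in the cornea (0.63 ± 0.16, adjusted p = 0.0616). The corepressor genes Ncor1 (-0.05 and 0.21) and Hdac3 (0.21 and 0.12) passed in neither the cornea nor the conjunctiva.

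Among 9 coactivators and chromatin partners of CLOCK and BMAL1, 0 passed in either tissue, with median log2 changes of 0.09 and 0.13. Among 5 coactivators of ROR proteins 0 were called changed. Ncoa1 had an adjusted p of 0.0482 in the cornea with a change of 0.47 ± 0.12, under the fold threshold. Of 12 kinases, ubiquitin ligases and related enzymes that act on clock proteins, 1 rose in each tissue, the deubiquitinase gene Usp2, with 1.34 ± 0.17 in the cornea and 1.54 ± 0.21 in the conjunctiva (limma adjusted p = 0.000354 and 0.00326). The kinase genes Csnk1d and Csnk1e were not called. Of 8 metabolic genes that REV-ERB and ROR proteins are known to control, 3 were tested in the cornea and 6 in the conjunctiva, and 0 passed.

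**Figure D4:**
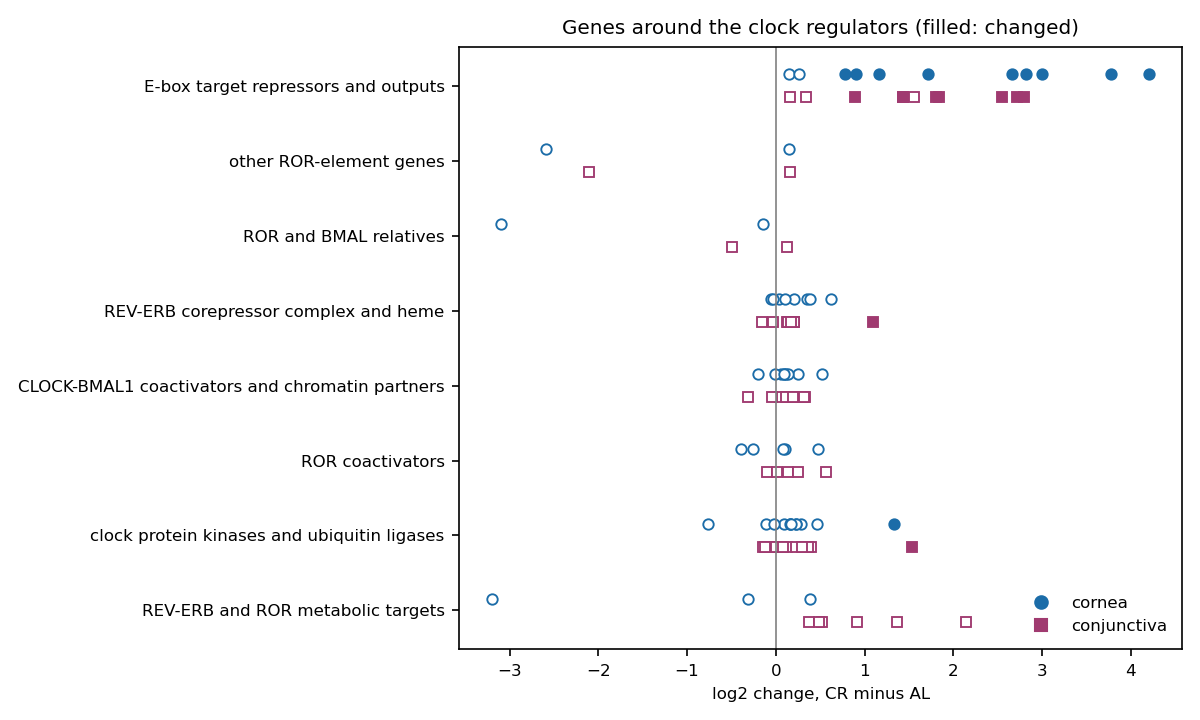
Log2 change under CR (horizontal axis) of each tested gene in 8 lists around the clock regulators (rows), with circles for the cornea and squares for the conjunctiva, filled where the gene was called changed. Filled symbols are mostly in the E-box row, where all lie above 0, and outside it they are Usp2 in both tissues and Alas1 in the conjunctiva.

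**Figure D5:**
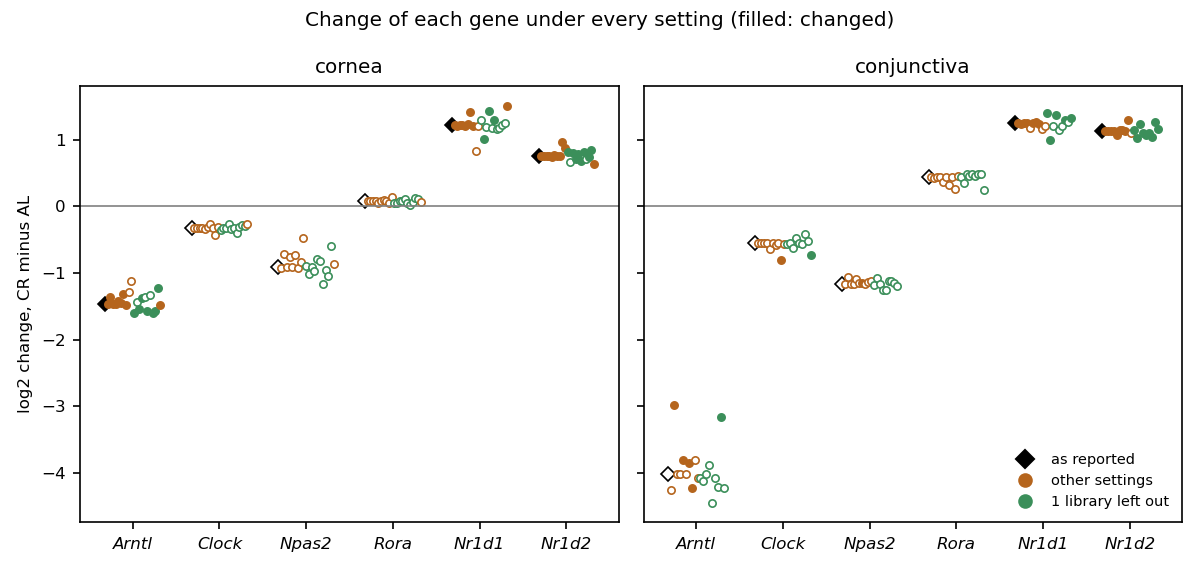
Log2 change under CR (vertical axis) of each of the 6 genes as reported (diamond), under other settings (brown) and with 1 library left out (green), filled where the gene was called changed. No gene crosses 0 in either tissue, Nr1d2 stays filled under most settings, and Arntl in the conjunctiva is filled under a minority of them, among them the points nearest to 0.

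The plot of changes under every setting sets the size of each change beside its stability. For all 6 genes the sign of the change was kept in both tissues under every alternative run, including the left-out libraries. What varied was the call: over left-out libraries 1 to 3 of the 6 genes were called in cornea fits, and likewise 1 to 3 in conjunctiva fits. Array weights added Arntl and Npas2 to the conjunctiva calls (4 of 6). With the zero share of each library as a term in the fit, Arntl (-1.28 ± 0.36, limma adjusted p = 0.123) and Nr1d1 (0.84 ± 0.25, adjusted p = 0.185) lost their calls in the cornea, and Nr1d1 lost its call in the conjunctiva (1.17 ± 0.28, adjusted p = 0.182).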

How the data were processed

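RNA sequencing libraries of cornea and conjunctiva were grouped from their deposited labels. By the study's methods the authors trimmed single reads with cutadapt, aligned them to mm10 with STAR, counted with HTSeq and scaled with DESeq2, whereas the submitters' processing notes name GRCm39 and DESeq2. Library kit and strand differ between labels and methods and were not settled. The deposited values are log2 of the count over the size factor plus 1, scaled by the authors per tissue. They were turned back into normalized counts and reads, and 100% came out whole within 0.01 reads. A count of 0 allows up to 3 reads, which is 2.27 to 3.37 normalized counts, for counting error only. Of the features, 5 per table repeated a symbol and were left out, 483 had no gene ID, and 0 columns were unmapped.

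Diets were compared with limma 3.58.1 (statmod 1.5.0, R 4.3.3; trend, robust) on log2(normalized count + 1) for genes averaging at least 10 normalized counts, with Benjamini-Hochberg adjustment over all genes. Fold changes on that scale understate those of low genes, except where a library is at 0. The difference between tissues was the difference of both changes with Satterthwaite degrees of freedom. Count models of the study were replaced by limma because the deposited unit is log2. The procedure was tested on simulated data. Named genes were all 6 members, genes that overlap them, up to 4 genes of a list that passed in a tissue, other list genes chosen after their values were seen, and the 3 highest and 3 lowest by mean r. A gene of the lists is not reported here. Members and lists were chosen with earlier results of these data known. Locations and overlaps come from GENCODE vM21 (GRCm38), sequences from RefSeq windows (GRCm38.p6). Alternatives tried were another pseudocount (0.5 or 10), another filter (none or 50), quantile and trimmed mean scaling, array weights, voom, the zero share of each library as a term, a replicate block, differences per shared title and each library left out. Samples with the same replicate number in AL and CR share only a number. Figures were drawn with matplotlib.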

Additional observations from a re-analysis of the deposited data

Results flagged for a closer look

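Rora in the conjunctiva was flagged because CR 5 stood far from the other CR libraries. On the log2 scale its value was 11.49 (2877 normalized counts), and its gap to the next library was 0.856 of the range of the 5 CR libraries, above the critical value of 0.71. Of 24 groups of libraries examined in this way, 1 was flagged, and chance flags about 1 group in 20. The same library was the highest of the CR conjunctiva libraries for Clock (1987 normalized counts), held the largest share of genes with 0 reads in its tissue (40.08%) and had 2596 reads of Rora. The cause was not tested.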

How the results depend on the processing

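The 6 genes kept the sign of their change within each tissue under all alternatives. In the cornea 3 genes were called, 1 with the zero share of each library in the fit (Nr1d2), 1 with the replicate number as a replicate block (Nr1d2), and 1 to 3 over left-out libraries. In the conjunctiva 2 were called (Nr1d1 and Nr1d2), 2 under quantile normalization (Arntl and Nr1d2) and 2 with the zero share in the fit (Clock and Nr1d2), 4 with array weights, 0 with the replicate block, and 1 to 3 over left-out libraries. Under the block Arntl in the cornea was at -1.12 (limma adjusted p = 0.117) and Nr1d2 in the conjunctiva at 1.11 (0.215). The block number comes from the titles alone, and deviations of same-numbered AL and CR libraries had r of -0.297 to 0.288 in cornea and -0.062 to 0.053 in conjunctiva libraries, so the numbers do not show pairs. The block also moved the count over all genes from 150 to 46 (cornea) and from 50 to 10 (conjunctiva), and array weights moved it to 705 and 149. The cornea count was 62 with the zero share in the fit and 99 with voom. The difference between tissues of Nr1d1, 0.02 as reported, turned to -0.027 under quantile normalization, -0.15 with array weights, -0.0072 with the replicate block and -0.26 without cornea AL 4 and CR 1, and ran from -0.22 to 0.23 over left-out libraries. No gene among the 6 passed the test of the difference under any alternative run. Npas2 in the cornea was not tested with the filter at a mean of 50. The causes of these shifts were not tested. Few reads limit Arntl in CR conjunctiva (0 to 35 reads) and Npas2 in CR cornea (13 to 64 reads).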
